A study of Xenopus laevis with 4 samples.

Results

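Ribonucleotide reductase and the enzymes that make, recycle and activate pyrimidine nucleotides were followed in RNA of Xenopus laevis embryos that the labels place at the mid-blastula transition, roughly 9 hours past fertilization. Their genes were taken by name from a table of 49078 features: every row whose name, without a final .L or .S, begins with rrm1 or rrm2 or is tyms, dhfr, tk1, dck, cad, umps, uck1 or uck2. This gave 13 rows, and 12 of them passed the filter on low counts. The remaining row, dhfr.S, had 0 counts in all 4 libraries, which allows at most 0.016 to 0.0674 TMM-scaled CPM per library (CPM puts the counts of every library on a common total), a limit of 3 counts that covers counting error only. The names cad, tk1, tyms, umps and rrm2 stand in the table with an L copy alone, and uck1, uck2 and rrm2b with an S copy alone. The exact name dck matched no row, because the table lists this gene as dck.1 and dck.2, and those rows are given separately below.

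Ribonucleotide reductase removes an oxygen from ribonucleoside diphosphates and so supplies the precursors of DNA. Its large subunit, encoded by rrm1, carries the catalytic and regulatory sites, and its small subunit, encoded by rrm2 or by the p53-induced form rrm2b in mammals, holds the radical that drives the reaction. Thymidylate synthase (tyms) and dihydrofolate reductase (dhfr) form a cycle that makes thymidylate, cad and umps build uridine monophosphate from small molecules, and the salvage kinases tk1, dck, uck1 and uck2 phosphorylate thymidine, deoxycytidine and uridine or cytidine. Cleaving embryos copy their genome in rapid cycles before they transcribe much of it. In sea urchin and clam eggs the small subunit mRNA is a well-known stored maternal message.

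The study had 2 groups of 2 libraries, and the labels name no mutation or transgene and do not give the number of embryos per library. The EU-RNA libraries came from embryos that each received 10 nl of 50 mM 5-ethynyl uridine (EU) by injection as a single cell. New transcripts take up this analogue of uridine, and they were tagged with biotin and captured on streptavidin beads. The Normal libraries came from total RNA of normal embryos, which the labels describe as holding maternal as well as new transcripts. The treatment text attached to these samples also mentions the injection, so the labels do not settle whether these embryos were injected. Capture and injection cannot be told apart in this comparison. As background, uridine and its analogues must be phosphorylated before they can enter RNA, a step that uridine kinases carry out.

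Totals ranged from 47598265 to 209445802 estimated counts, with Normal replicate 1 the shallowest and Normal replicate 2 the deepest library. A single locus, LOC108705792, took 0.0215% and 0.0224% of counts in EU-RNA and 29.1% and 28.1% in Normal. The 13 nucleotide rows together took 0.128% and 0.129% of counts in EU-RNA and 0.128% and 0.123% in Normal. These are shares of all counts, and that locus lowers the Normal shares, so their likeness does not show equal levels. Of 18 rows of early zygotic marker genes such as sia1, nodal5 and mixer, 12 passed the test as higher in EU-RNA and none as lower, and 17 had an unadjusted p under 0.05 as higher and 0 as lower. Summed over this list, CPM was 3672 and 3682 in EU-RNA, against 917 and 941 in Normal. Of 11 rows listed here as maternal genes, such as h1foo, zar1 and vegt, 2 were higher (vegt.L and vegt.S) and 1 was lower (h1foo.L). A row does not separate stored from new transcripts of its gene, so a gene listed as maternal may also be newly transcribed. Their summed CPM was 2275 and 2145 in EU-RNA, against 1138 and 1162.5 in Normal. The higher sum came from the vegt rows. vegt.L was at 1034.5 and 765.8 CPM in EU-RNA, against 257.5 and 256.7 CPM in Normal. vegt.S was at 694 and 724 CPM in EU-RNA, against 185 and 246 CPM in Normal. EU-RNA lay below Normal without overlap for 5 of the 11 rows and above for 6, beside 30.6% and 26.4% of all tested features. Of 17 rows of markers of differentiated tissues, 9 had 0 counts in every library, globin genes among them, and the list summed to 51.3 and 36.9 CPM in EU-RNA, against 8.16 and 11.8 CPM in Normal. The insulin gene ins.L was the member of that list that passed the test. A fold change here compares shares of captured RNA with shares of total RNA, and not amounts per embryo. Whether the embryos of the groups also differed by injection is not settled by the labels. Whole embryos were used, so the number of cells with a transcript and the amount per cell cannot be told apart.

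Among the 12 tested nucleotide genes, rrm2.1.L alone passed the test and was lower in EU-RNA, and none was higher. Across all 26543 features tested, 0.889% were called lower, 4.69% higher and 5.58% in either direction (edgeR's quasi-likelihood F-test, Benjamini-Hochberg adjusted p under 0.05). At an unadjusted p under 0.05, 2 were higher (the kinase genes tk1.L and uck2.S) and 4 lower (rrm2.1.L, rrm1.L, rrm2b.S and tyms.L), a cut that 12.3% of all features passed in each direction. DESeq2 called the same 2 genes higher and the same 4 lower, beside 12.3% of features higher and 8.12% lower by that tool. Limma-voom called none higher and rrm2.1.L lower, beside 4.25% of features higher and 1.45% lower. The median log2 fold change, EU-RNA over Normal throughout, was -0.38 over the 12 genes and 0.009 over all features tested, with 10 of the 12 below 0. The gap between these medians depended on the setting. The median was -0.32 over the 12 genes and -0.28 over all features without EU-RNA replicate 1. It was -0.32 and -0.21 with limma-voom, and -0.39 and -0.21 with DESeq2. The DESeq2 median of all features was taken over every row with any count, a wider set than edgeR tested. With another scaling (RLE size factors) on the features that edgeR tested, the medians were -0.39 and 0.01. With scaling by library size alone the medians were -0.11 and 0.27. There 6 of the 12 were below 0, against 7 and 8 without EU-RNA replicates 1 and 2. CPM did not overlap between the groups for 7 of the 12 genes, with EU-RNA below Normal for 5 and above for 2. Over all tested features the groups did not overlap for 30.6% with EU-RNA below and for 26.4% with EU-RNA above. CPM levels are scaled to the library and not to transcript length, so they are compared between groups and not between genes.

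**Figure D1:**
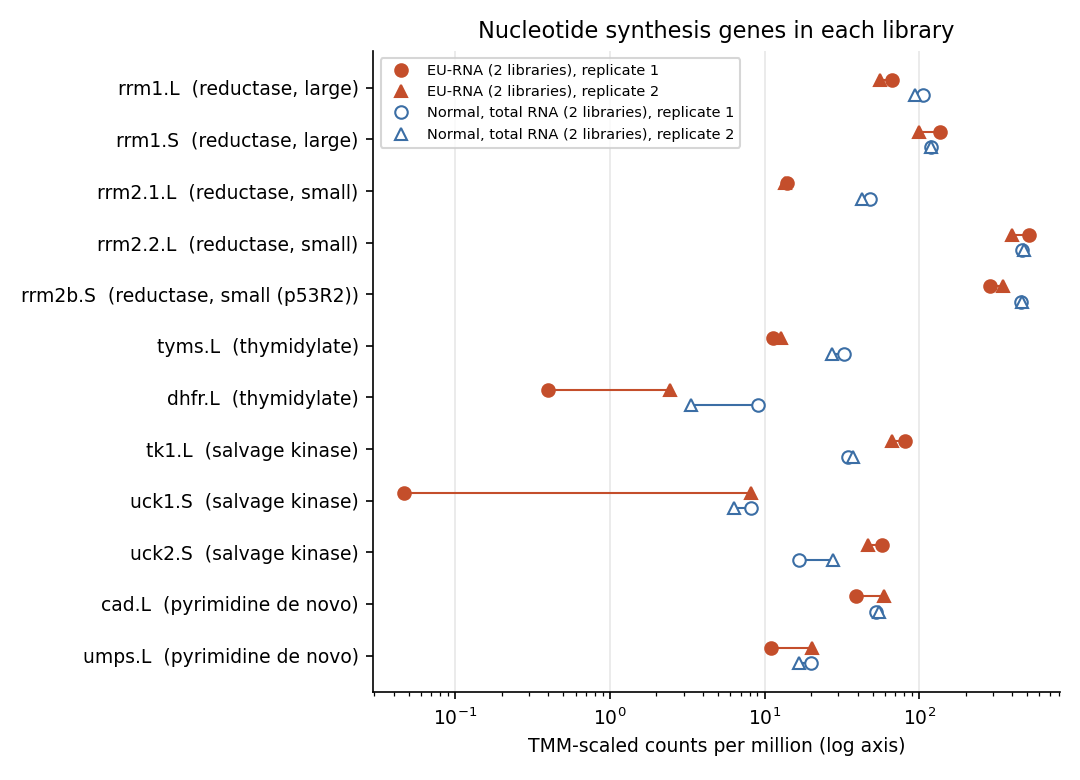
TMM-scaled CPM (log axis) of the 12 tested genes in each library, with EU-RNA in filled red above Normal in open blue on each line; circles are replicate 1 and triangles replicate 2, and the gene dhfr.S, at 0 in all libraries, is not drawn. The rrm2.1.L points of EU-RNA at 14.1 and 13.5 lie left of those of Normal at 48 and 43.0, while the points of rrm2.2.L overlap and those of uck1.S in EU-RNA are far apart.

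The small subunit gene rrm2.1.L had 1200 and 1814 counts in EU-RNA replicates 1 and 2 and 2135 and 8050 counts in Normal replicates 1 and 2. On the CPM scale this was 14.1 and 13.5 in EU-RNA, against 48 and 43.0 in Normal. Both EU-RNA libraries were low and close to each other, both Normal libraries were high, and the gap between the groups was far wider than the spread within them. The mean was 13.8 ± 0.403 CPM in EU-RNA and 45.5 ± 3.56 CPM in Normal (SD, n = 2 each), which differ by -1.72 on the log2 scale (SE 0.27, edgeR adjusted p = 0.0224), a level 3.3-fold higher in Normal. Of all tested features, 12.4% had a lower log2 fold change. The call was lost without Normal replicate 1, where the log2 fold change was -1.63. It held under every alternative that kept all 4 libraries. There the adjusted p ran from 6.09e-06 (DESeq2) to 0.0354 (edgeR with library size alone). Over all 12 alternatives the log2 fold change was -1.81 to -1.46.

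Its neighbour rrm2.2.L, which also encodes the small subunit, lies directly beside rrm2.1.L on chromosome 5L with no gene between them in the RefSeq gene table (assembly Xenopus_laevis_v10.1). It stood at 510.2 and 396 CPM in EU-RNA, against 465 and 478 CPM in Normal. The Normal values lay between the EU-RNA values, so the groups overlapped. The log2 fold change was -0.06 (SE 0.21, edgeR adjusted p = 0.913), and its sign turned with scaling by library size alone, at 0.19. The counts of rrm2.1.L per 100 counts of rrm2.2.L do not depend on how libraries are scaled. They were 2.76 and 3.41 in EU-RNA, against 10.3 and 9.00 in Normal, so that the ratio was 3.14-fold higher in Normal than in EU-RNA. The difference in log2 ratio was -1.65, beside SDs of 0.22 in EU-RNA and 0.14 in Normal. An exact two-sided permutation test of 2 libraries against 2 gave p = 0.333, the smallest it can give. Summed over both genes, the level was 524 and 409 CPM in EU-RNA, against 513 and 520.5 CPM in Normal, with overlap. Reads that fit both genes may have been split wrongly between them by the authors' counting.

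The remaining small subunit gene, rrm2b.S, the p53R2 form, was at 287 and 350 CPM in EU-RNA, against 453 and 466 CPM in Normal. Both EU-RNA libraries were below both Normal libraries. The difference of -0.53 on the log2 scale (SE 0.20) was not called by edgeR, at an adjusted p of 0.166, and was by DESeq2 (adjusted p = 0.0108). Over 12 alternatives the adjusted p ranged from 0.000819 to 0.878, and 2 of them passed the threshold.

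The large subunit gene was measured as both homeologs, the copies on the long and short chromosomes of this allotetraploid frog. rrm1.L was at 67.1 and 56.1 CPM in EU-RNA, against 106 and 93.7 CPM in Normal, and the groups did not overlap. Its log2 fold change was -0.69 (SE 0.21, edgeR adjusted p = 0.130), with an adjusted p under the threshold in 3 of 12 alternatives. rrm1.S was at 136 and 99.3 CPM in EU-RNA, against 119 and 119.9 CPM in Normal. The Normal values lay between those of EU-RNA, and the log2 fold change was -0.02 (SE 0.22, edgeR adjusted p = 0.971), or 0.23 with scaling by library size alone. Per 100 counts of rrm1.S there were 49.2 and 56.5 counts of rrm1.L in EU-RNA, against 88.5 and 78.1 in Normal, a difference of -0.66 in the log2 ratio (exact permutation p = 0.333, two-sided, the smallest possible). With both copies summed, which removes any wrong split of reads between them, rrm1 was at 203 and 155 CPM in EU-RNA, against 225 and 214 CPM in Normal. The log2 fold change of the sum was -0.32 (SE 0.20, edgeR adjusted p = 0.410). With every homeolog pair summed in this way, 4.7% of 21997 features were called higher, 1.07% lower and 5.77% in either direction. Of the 11 nucleotide genes after summing, rrm2.1 was lower and none was higher. At an unadjusted p under 0.05, 2 were higher (tk1 and uck2) and 3 lower (rrm2.1, rrm2b and tyms), against 12.5% and 13.1% of these features. DESeq2 called the same 2 and the same 3, against 12.8% of features higher and 8.88% lower.

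**Figure D2:**
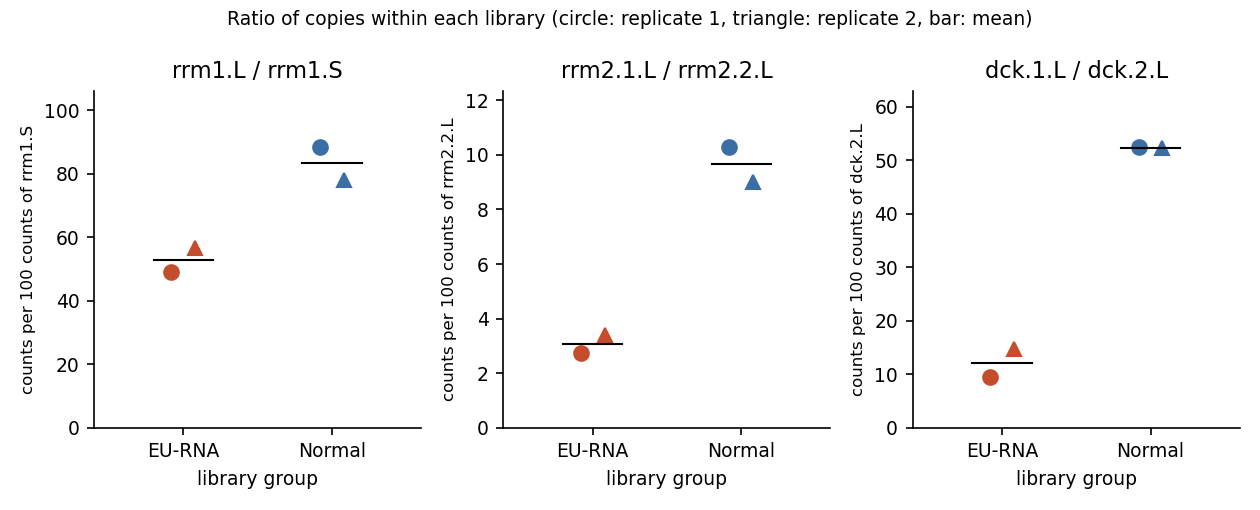
Counts of the first copy per 100 counts of the second within each library, for the rrm1 homeologs and the rrm2 and dck paralogs, with EU-RNA left of Normal, a circle for replicate 1, a triangle for replicate 2 and a bar at the mean. In each panel both EU-RNA libraries lie below both Normal libraries, for example at 2.76 and 3.41 against 10.3 and 9.00 for rrm2.1.L per 100 rrm2.2.L.

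Neither gene of the thymidylate cycle passed the test, and both had lower CPM in EU-RNA, without overlap between the groups. tyms.L, the synthase, was at 11.3 and 12.8 CPM in EU-RNA, against 32.5 and 27.4 CPM in Normal. The libraries of each group lay close together and the groups were well apart. The log2 fold change was -1.31 (SE 0.34, edgeR adjusted p = 0.0929, DESeq2 adjusted p = 0.00663). Of 12 alternatives 4 passed, some of them with a lone library in a group. With all 4 libraries kept, the adjusted p ranged from that of DESeq2 to 0.159 (edgeR with library size alone). dhfr.L, which restores the folate cofactor that the synthase uses up, was a rare transcript with 34 and 327 counts in EU-RNA and 404 and 623 in Normal. These were 0.399 and 2.44 CPM in EU-RNA, against 9.08 and 3.32 CPM in Normal. Libraries of both groups were far apart, and the difference of -2.13 on the log2 scale (SE 1.39, edgeR adjusted p = 0.434) did not exceed that spread. Without EU-RNA replicate 2 it was -4.02, the only alternative of 12 under which it passed, with EU-RNA replicate 1 standing alone for its group.

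The cytosolic thymidine kinase gene tk1.L had higher CPM in EU-RNA, also without passing. It was at 81.4 and 66.6 CPM in EU-RNA, against 34.8 and 37.4 CPM in Normal. Both EU-RNA libraries were above both Normal libraries, and each group's spread was smaller than the gap. The mean was 74.0 ± 10.4 CPM in EU-RNA and 36.1 ± 1.84 CPM in Normal (SD, n = 2 each). The log2 fold change of 1.03 (SE 0.23) missed the threshold, with an edgeR adjusted p of 0.0588. Of 12 alternatives 6 passed, DESeq2 among them (adjusted p = 0.00204), some with a lone library in a group. With all 4 libraries kept, the adjusted p ranged from that of DESeq2 to 0.0603 (limma-voom).

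The uridine-cytidine kinase gene uck2.S was at 57.5 and 46.5 CPM in EU-RNA, against 16.7 and 27.8 CPM in Normal. The groups did not overlap. The mean was 52.0 ± 7.76 CPM in EU-RNA and 22.2 ± 7.84 CPM in Normal (SD, n = 2 each). Relative to the mean, the spread was thus wider in Normal. The log2 fold change of uck2.S was 1.22 (SE 0.33) with an edgeR adjusted p of 0.105, which misses the threshold. The threshold was passed in 7 of 12 alternatives, some of them with a lone library in a group. With all 4 libraries kept, the edgeR adjusted p ranged from 0.00366 (no filter) to 0.101 (most abundant feature left out). Its relative uck1.S had 4 and 1096 counts in EU-RNA, against 366 and 1189 in Normal. On the CPM scale it was at 0.0469 and 8.16 in EU-RNA, against 8.23 and 6.35 in Normal. EU-RNA replicate 1 nearly lacked this transcript, while EU-RNA replicate 2 lay between the Normal libraries. The fitted value of -0.83 on the log2 scale (SE 1.79, edgeR adjusted p = 0.849) rests on that split. It was 0.10 without EU-RNA replicate 1 (edgeR adjusted p = 0.922) and -7.29 without EU-RNA replicate 2 (edgeR adjusted p = 2.14e-06).

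The 2 genes of de novo pyrimidine synthesis had overlapping groups. cad.L, which encodes the multifunctional enzyme of the opening steps, was at 39.3 and 59.0 CPM in EU-RNA, against 52.3 and 54.7 CPM in Normal (log2 fold change -0.12, SE 0.27, edgeR adjusted p = 0.854). umps.L, which encodes the enzyme of the closing steps to uridine monophosphate, was at 10.96 and 20.4 CPM in EU-RNA, against 20.1 and 16.6 CPM in Normal (log2 fold change -0.23, SE 0.45, edgeR adjusted p = 0.833). In both genes the lower EU-RNA value was that of replicate 1. Neither passed under any of the 12 alternatives, and both changed sign with scaling by library size alone, to 0.15 for cad.L and 0.05 for umps.L.

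The deoxycytidine kinase rows, which the exact name did not match, were looked at after their values were seen. dck.2.L was at 268 and 207 CPM in EU-RNA, against 64.1 and 81.6 CPM in Normal, with both EU-RNA libraries far above. It was higher in EU-RNA by 1.70 on the log2 scale (SE 0.23, edgeR adjusted p = 0.0142), which is 3.26-fold, and passed under all 12 alternatives. dck.1.L was at 25.4 and 30.6 CPM in EU-RNA, against 33.6 and 42.6 CPM in Normal, and did not pass (log2 fold change -0.45, SE 0.28, edgeR adjusted p = 0.414). LOC108710975, which the RefSeq gene table names dck.1l.L, was at 17.9 and 33.2 CPM in EU-RNA, against 58.8 and 61.0 CPM in Normal, and did not pass either (log2 fold change -1.23, SE 0.34, edgeR adjusted p = 0.110). Per 100 counts of dck.2.L there were 9.47 and 14.8 counts of dck.1.L in EU-RNA, against 52.5 and 52.2 in Normal, a ratio 4.42-fold higher in Normal (exact permutation p = 0.333, two-sided, the smallest possible). The paralogs of rrm2 and of dck thus each held a row that the edgeR test called and a row that it did not. Whether the rows of a pair differ from each other in fold change was tested only by these permutations.

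**Figure D3:**
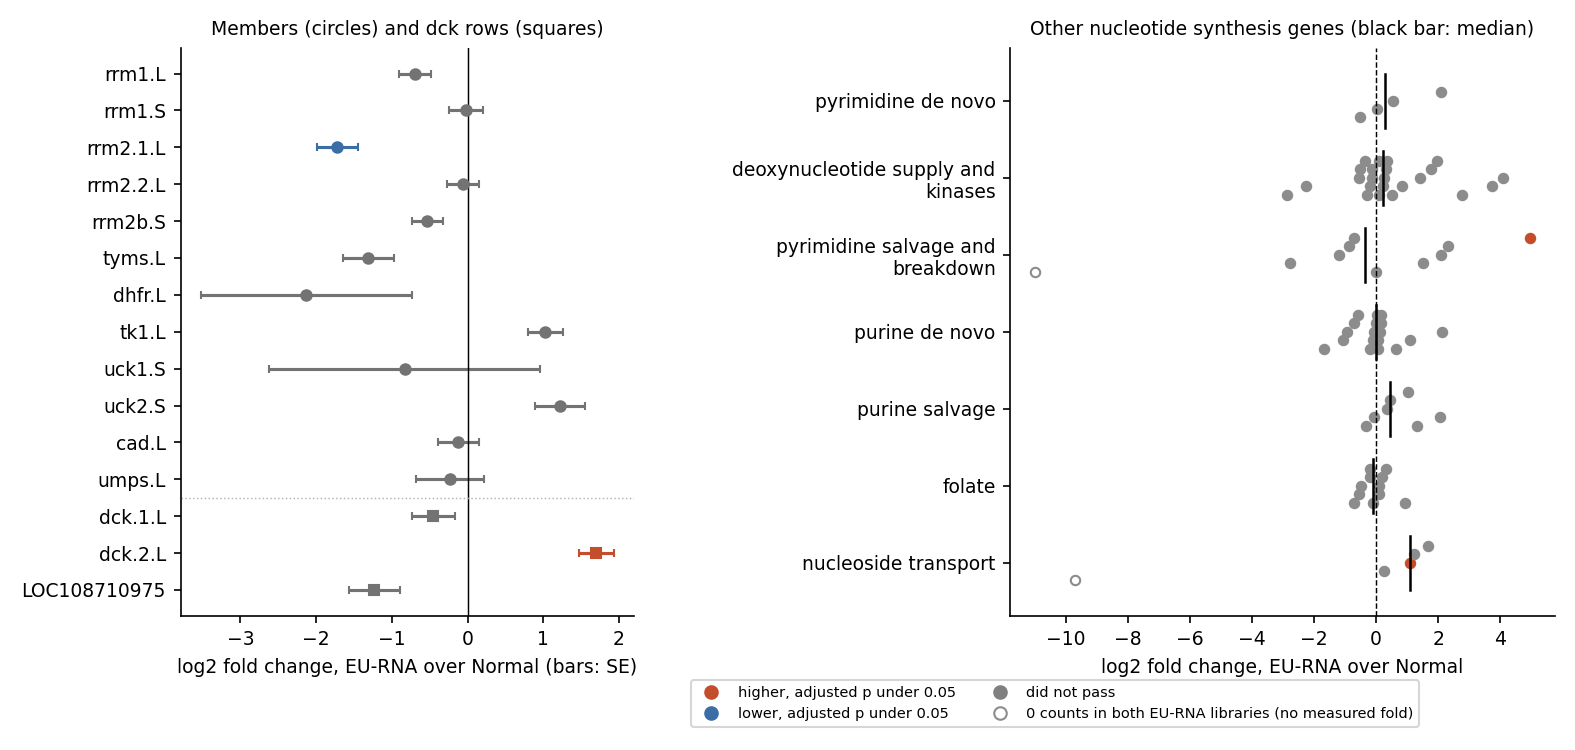
Log2 fold change of EU-RNA over Normal with SE bars for the 12 tested genes and the dck rows (left), and without bars for 78 other nucleotide synthesis genes by step of the pathway (right, black bars at the medians, open circles for 2 genes with 0 counts in both EU-RNA libraries, whose plotted position is not a measured fold). On the left rrm2.1.L at -1.72 is the gene called lower and dck.2.L at 1.70 the row called higher; on the right upp1.L at 4.96 and slc29a2.L at 1.11 are the genes called.

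Outside these genes, a list of nucleotide synthesis, breakdown and transport genes held 88 rows, of which 78 were tested. By edgeR 2 were higher and none lower, against 4.69% and 0.889% of all features, with a median log2 fold change of 0.10. Setting the 2 genes at 0 in EU-RNA to their bound could not move it, since both stayed below the median. At an unadjusted p under 0.05, 9 were higher and 4 lower, against 12.3% of all features in each direction. DESeq2 called 9 of 80 higher and 4 lower, beside 12.3% of features higher and 8.12% lower by that tool. Limma-voom called 3 of 78 higher and 0 lower, beside 4.25% of features higher and 1.45% lower. The genes called were upp1.L and slc29a2.L. upp1.L encodes uridine phosphorylase, which splits uridine into uracil and ribose phosphate. It was at 79.5 and 44.9 CPM in EU-RNA, against 2.92 and 1.16 CPM in Normal, higher by 4.96 on the log2 scale (SE 0.60, edgeR adjusted p = 0.0094), which passed under all 12 alternatives. slc29a2.L encodes an equilibrative nucleoside transporter of the cell membrane. It was at 109 and 92.2 CPM in EU-RNA, against 47.9 and 45.5 CPM in Normal, higher by 1.11 on the log2 scale (SE 0.21, edgeR adjusted p = 0.0358). That call was lost without Normal replicate 1, where the log2 fold change was 1.15 (edgeR adjusted p = 0.138), and without Normal replicate 2, where it was 1.07 (edgeR adjusted p = 0.145).

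By step of the pathway, each group of the list was read beside its tested member with the highest mean CPM, which does not rank the genes, since CPM is not scaled to length. These members were upp1.L for pyrimidine salvage and breakdown and slc29a2.L for nucleoside transport. upp1.L held this place through its EU-RNA values alone, since in Normal uprt.L, at 19.9 and 16.2 CPM, had more. The folate member mthfd2.L held its place through Normal, since in EU-RNA mthfd1.L had the higher mean (60.3 against 57.7 CPM). In EU-RNA guk1.S also had a higher mean than samhd1.L (59.3 against 54.1 CPM). In pyrimidine salvage and breakdown 1 of 10 tested genes was called higher and 0 lower. Their median was -0.36 on the log2 scale. At an unadjusted p under 0.05, 2 were higher and 1 lower (upb1.S, at 0 counts in both EU-RNA libraries). That cut was passed by 12.3% of all features in each direction. CPM of EU-RNA lay below Normal without overlap for 5 of these 10 and above for 3, against 30.6% and 26.4% of all tested features. Over the 78 tested genes of the whole list it lay below for 14 and above for 19. In nucleoside transport 1 of 5 was called higher and none lower, with a median of 1.11, which is the value of slc29a2.L itself. At an unadjusted p under 0.05, 1 was higher (slc29a2.L) and 1 lower (slc28a3.L, at 0 counts in both EU-RNA libraries). In de novo purine synthesis none of 18 tested genes passed, the median log2 fold change was 0.01, and prps2.L, which makes the activated ribose that purines are built on, was at 68.9 and 57.2 CPM in EU-RNA, against 64.3 and 69.5 CPM in Normal. In the folate group none of 11 passed, with a median of -0.11. Its member mthfd2.L, a mitochondrial folate enzyme, was at 47.7 and 67.8 CPM in EU-RNA, against 97.9 and 92.6 CPM in Normal (log2 fold change -0.72, edgeR adjusted p = 0.157). In purine salvage none of 7 passed, with a median of 0.45, and adk.S, the adenosine kinase gene, had overlapping groups only between EU-RNA replicate 1 and Normal replicate 2, at 71.7 and 116 CPM in EU-RNA against 60.9 and 77.0 CPM in Normal. None of 23 genes of deoxynucleotide supply and nucleotide kinases passed, with a median of 0.21. There samhd1.L, whose product degrades deoxynucleotides, was at 64.6 and 43.7 CPM in EU-RNA, against 47.0 and 40.6 CPM in Normal. None of 4 further genes of de novo pyrimidine synthesis passed, and ctps2.L, a CTP synthase gene, was at 35.5 and 22.2 CPM in EU-RNA, against 15.3 and 24.4 CPM in Normal. In these last 5 groups 0 genes were called by edgeR, while at an unadjusted p under 0.05 the deoxynucleotide group had 3 higher and 0 lower, and de novo purine synthesis 1 higher and 1 lower. Purine salvage and de novo pyrimidine synthesis had 1 higher and 0 lower each, and the folate group 0 higher and 1 lower.

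The features whose log2(CPM + 1) over the 4 libraries lay nearest to that of rrm2.1.L, by Euclidean distance, were sar1a.S (0.0903), mindy1.L (0.171), pigv.S (0.308), dnajc1.L (0.341) and ehbp1.L (0.350). sar1a encodes a GTPase of vesicle budding, mindy1 a deubiquitinase, pigv a mannosyltransferase of the GPI anchor pathway and dnajc1 a co-chaperone of the endoplasmic reticulum. sar1a.S was at 14.2 and 13.3 CPM in EU-RNA, against 46.3 and 45.1 CPM in Normal, close to rrm2.1.L in every library. The 5 were chosen for this likeness, so their log2 fold changes of -1.74 to -1.39 are a description.

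**Figure D4:**
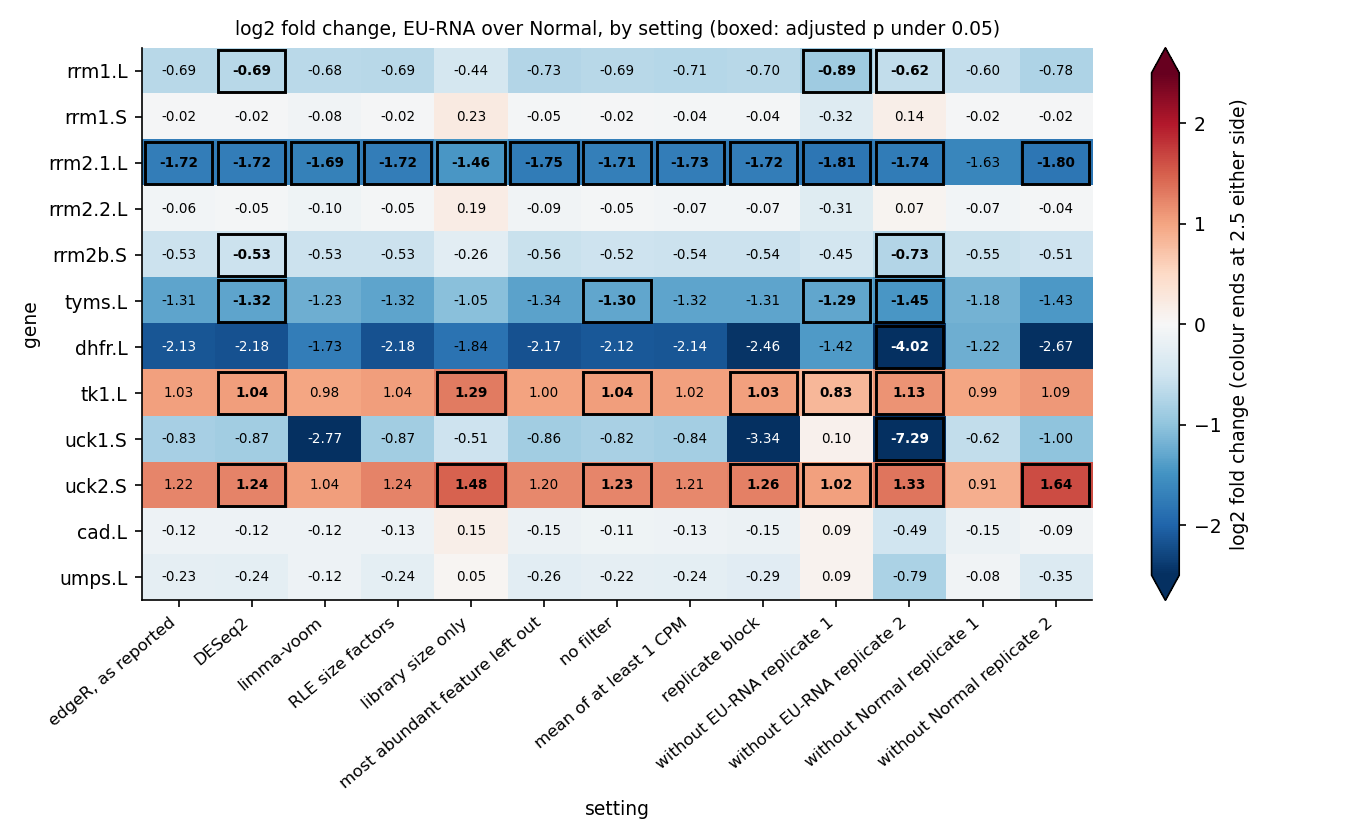
Log2 fold change of EU-RNA over Normal for each of the 12 tested genes (rows) under edgeR as reported and 12 alternative settings (columns), coloured on a scale that ends at 2.5 either side, with a box where the adjusted p was under 0.05. The row of rrm2.1.L is boxed in all columns but the one without Normal replicate 1 (-1.63), those of tk1.L and uck2.S stay above 0 throughout with 6 and 7 boxes among the alternatives, and uck1.S goes from 0.10 to -7.29 between the columns that leave out an EU-RNA library.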

How the data were processed

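Libraries were prepared with a kit made for human FFPE RNA, per the labels' protocols. The authors deposited 4 columns of whole-number expected or estimated counts, 1 per library, for each gene. Salmon 0.12.0, which estimates transcript abundance, and bcl2fastq are the tools listed per the submitters' processing notes. For the transcript set, genome build, any length scaling and use of strand, nothing is stated (not given in the sources used here). Coordinates are left out, and overlapping or antisense genes cannot be told apart. Of the 13 rows, 12 have their symbol in the RefSeq gene table (assembly Xenopus_laevis_v10.1), which was used for names and neighbours. Sequences were not analysed here.

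The expected counts were taken as rounded and fitted over all features with edgeR 4.0.16 in R 4.3.3 (quasi-likelihood F-test, TMM factors, default filterByExpr, group as the only term, Benjamini-Hochberg adjustment, threshold 0.05). SE is the log2 fold change over the square root of F. CPM uses the TMM-scaled library total, and TMM sets the average transcript near 0, so a fold change is relative to it. A fit with homeologs summed, DESeq2 1.42.0 and limma-voom (limma 3.58.1) were run beside it, with other scalings, filters, a replicate block and each library left out. Nothing in the labels ties the replicates to separate clutches of eggs, so the p-values reflect library-to-library spread that could be technical.

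The members, lists and tests were chosen with earlier results of these data known. Named genes are all members, the called genes of the other list, the tested gene with the highest mean CPM in each of its groups and the 5 features nearest to rrm2.1.L. The paralog ratios and dck rows were added after values were seen. List names were matched exactly, so genes listed under another name are missing.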

Additional observations from a re-analysis of the deposited data

How the results depend on the processing

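Against 0 higher and 1 lower of the 12 nucleotide genes by edgeR, DESeq2 called 2 and 4, and analysis without a filter 2 and 2. Scaling by library size alone and the replicate block each called 2 higher, and leaving out a library gave 0 to 2 higher and 0 to 6 lower. With homeologs summed, against 0 higher and 1 lower, DESeq2 called 2 and 3, no filter 2 and 2, library size and the replicate block 2 higher each, and leaving out a library 0 to 2 and 0 to 5. Of the other nucleotide list, against 2 higher and 0 lower, DESeq2 called 9 and 4, no filter 8 higher and library size 4 higher, and leaving out a library 1 to 12 higher and 0 to 10 lower. Over all features, against 1246 higher and 236 lower, DESeq2 called 3390 and 2242, no filter 2488 and 1134, limma-voom 385 lower, library size 142 lower, the replicate block 680 lower, and leaving out a library 1197 to 4577 higher and 151 to 5218 lower. The features tested ranged from 21886 with a filter at a mean of 1 CPM to 35078 with no filter, so these counts are not shares of 1 total. With homeologs summed, calls over all features were counted for edgeR as reported and for DESeq2 alone. Under the other settings the summed counts have no share over all features beside them, so whether they exceed it was not tested. Calls of fits without 1 library are not counted here. There a lone library of a group is assumed to vary like the other group. Scaling by library size moved the median of all tested features to 0.27, against 0.009 with TMM, and turned the sign of cad.L (0.15), rrm1.S (0.23), rrm2.2.L (0.19) and umps.L (0.05). Leaving out EU-RNA replicate 1 or 2 gave 0.09 or -0.49 for cad.L, 0.10 or -7.29 for uck1.S, 0.09 or -0.79 for umps.L, -0.32 or 0.14 for rrm1.S and -0.31 or 0.07 for rrm2.2.L. None passed where its sign had turned, and the cause was not tested. Limma-voom, RLE size factors, a filter at a mean of 1 CPM and leaving out the most abundant feature changed none of the 12 calls. The replicate numbers are shared between the groups. Deviations of the same-numbered libraries from their group means had a correlation of r = 0.00326 over 26543 features. With 2 libraries per group and rare transcripts included, this cannot exclude a shared clutch or batch. The lowest counts of dhfr.L and uck1.S, 34 and 4, were those of EU-RNA replicate 1, while Normal replicate 1, the shallowest library, held 404 and 366. For dhfr.S, at 0 in all libraries, depth allows no more than the limits given.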
